A study of Mus musculus with 19 samples.

Results

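Foxn1 and 9 genes that accompany it in the early cortical programme of the mouse thymus (Prss16, Cd83, Tbata, Ly75, Pltp, Ppp1r27, Crip3, Adra1b and Pgam2) were examined in single cells of the thymic primordium. The genes were taken by name, and all 10 had a row among the 54179 genes of the count table, of which 21964 were protein-coding. Cells were sorted for surface EPCAM and PLET1 from wild-type C57BL/6 embryos, without treatment, at stage E10.5, named for days of embryonic development, when the tissue is endoderm of the pharyngeal pouch, and at E12.5, when the pouch has formed a thymic and a parathyroid domain. Each stage was represented by 4 plates of single cells (plates a, b, c and d at the earlier stage, plates a, c, d and e at the later one), with 356 E10.5 and 355 E12.5 cells that passed the cell filters. The plate is the replicate throughout. The labels do not tie plates to embryos or litters, so the p-values measure the spread between plates, which may be technical. Of the E12.5 cells, 42 had at least 2000 CPM (counts scaled to the protein-coding total of the cell or plate) of Chga, which encodes chromogranin A of endocrine granules. These are called parathyroid cells, and the other 313 cells are called other E12.5 cells.

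FOXN1 is the forkhead transcription factor that thymic epithelial cells need in order to differentiate and to support T cell development, and loss of its function leaves a rudimentary thymus in nude mice. It acts directly on genes with which cortical thymic epithelial cells (cTEC) attract thymocyte progenitors, drive them into the T lineage and present self-peptides to them. The parathyroid domain arises from the same pouch and does not depend on FOXN1. Prss16, Cd83 and Ly75 are known from antigen processing and presentation. Crip3 encodes a LIM domain protein of the thymus, and Tbata was named for its presence in thymus, brain and testis. Pltp, Pgam2, Ppp1r27 and Adra1b encode a lipid transfer protein, a glycolytic enzyme, a phosphatase subunit and a receptor.

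RefSeq upstream windows of 250 bases (GRCm38.p6) were available for 7 of the 10 genes and were searched for GACGC, the core of the motif bound by FOXN1, on both strands (GCGTC on the strand of the gene). Prss16, Cd83 and Crip3 had no entry. The windows of Foxn1, Pltp and Ppp1r27 are shown 5′ to 3′ on the strand of the gene, in lower case with the motif in capitals, because Foxn1 defines the set and Pltp and Ppp1r27 hold the motif nearest to a start site. The windows lie at chr11:78386609-78386858 (minus strand), chr2:164857709-164857958 (minus strand) and chr11:120551133-120551382 (minus strand).
Foxn1: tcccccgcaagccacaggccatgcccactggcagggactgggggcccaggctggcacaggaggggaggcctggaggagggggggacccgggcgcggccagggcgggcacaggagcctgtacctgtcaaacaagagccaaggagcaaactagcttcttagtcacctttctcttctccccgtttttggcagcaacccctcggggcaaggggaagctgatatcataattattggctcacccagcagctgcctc
Pltp: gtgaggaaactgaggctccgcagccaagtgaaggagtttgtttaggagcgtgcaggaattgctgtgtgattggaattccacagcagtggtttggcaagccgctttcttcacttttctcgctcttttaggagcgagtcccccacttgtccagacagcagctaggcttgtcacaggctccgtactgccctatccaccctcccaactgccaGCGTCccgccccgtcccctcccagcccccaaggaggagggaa
Ppp1r27: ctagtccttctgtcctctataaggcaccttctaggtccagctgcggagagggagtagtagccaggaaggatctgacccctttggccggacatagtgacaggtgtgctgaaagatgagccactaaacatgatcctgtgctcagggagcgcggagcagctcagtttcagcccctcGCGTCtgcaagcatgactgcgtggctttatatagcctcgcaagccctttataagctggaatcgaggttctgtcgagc
The motif began 42 bases before the RefSeq start of Pltp and 77 bases before that of Ppp1r27. It was also present in 1 of the 2 windows of Adra1b, 117 bases before the start. The 5 remaining windows, including that of Foxn1, did not hold these letters. Of all 32851 windows of this length, 22.6% held the motif, against 3 of the 8 windows of these genes. A match is a description of the letters, and no binding was measured.

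The protein-coding genes lie on GRCm38 (GENCODE vM21) chromosome 11 (Foxn1 at 78357577 to 78386558, Ppp1r27 at 120549979 to 120551132, Adra1b at 43774606 to 43901210 and Pgam2 at 5801640 to 5803733), chromosome 13 (Prss16 at 22002173 to 22009742 and Cd83 at 43784775 to 43803132), chromosome 2 (Ly75 at 60292103 to 60383303 and Pltp at 164839518 to 164857711), chromosome 10 (Tbata at 61171954 to 61188841) and chromosome 17 (Crip3 at 46428926 to 46431776).

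The plates held 11674156 to 17545016 protein-coding reads over the cells that passed. The median was 133387.5 reads per cell at E10.5, 174811 in other E12.5 cells and 144085 in parathyroid cells. Plate a of E10.5 held 250144 molecules, counted from molecular indices, against 861216 to 936219 on the other E10.5 plates. All plates carry the same well barcodes, and 89 wells were present on all 8. The cTEC marker list (Psmb11, Ccl25, Ctsl, Enpep, Krt8, Krt18 and Dll4) summed to 9135 to 10498 CPM on the plates of other E12.5 cells, 826 to 1305 CPM in parathyroid cells and 501 to 652 CPM at E10.5, although Enpep itself was near 0. Chga, which had chosen the parathyroid cells, stood at 22566 to 42711 CPM in them. The neural list summed to 1264 to 2863 CPM at E10.5 and to 1466 to 1910 CPM in other E12.5 cells, and 64 E10.5 cells had at least 100 CPM of the neuronal tubulin Tubb3. These sums hold opposite changes. In the edgeR test between the stages given below, Tubb3, Nefl, Nefm and Elavl3 were called lower at E12.5 (log2 fold changes -5.63, -6.32, -1.17 and -9.76). Stmn2 was called higher (4.05). Neurod1 (-5.10, edgeR adjusted p = 0.0629) and Isl1 (-0.529, edgeR adjusted p = 0.462) were not called.

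All 10 genes were higher at E12.5 than at E10.5, and for each of them every E12.5 plate was above every E10.5 plate. In the edgeR quasi-likelihood test on reads summed per plate (Benjamini-Hochberg adjusted over 11499 genes) all 10 were called higher. Across all genes tested, 3.80% were called higher, and 8.59% had every E12.5 plate above every E10.5 plate. Ly75, Pltp and Pgam2 had reads on every E10.5 plate (16 to 104, 101 to 644 and 3 to 122). Pgam2, with 3 reads on plate a, and the other genes of the set passed the filter on low counts through their E12.5 plates, where they were high. All 10 were also chosen with earlier results of these data known, so that the count of 10 is a description. The sums per plate hold cells and RNA together, so that more expressing cells and more RNA per cell cannot be told apart in them. For genes with very few E10.5 reads the fitted fold change depends on the small count added by the fit. The ratio of summed reads is therefore given with a 95% interval that treats each read as an independent count. Many reads can come from 1 molecule (14.2 to 125.3 reads per counted molecule over the 10 genes in other E12.5 cells). The interval is thus too narrow for the error of counting molecules, and it leaves out the spread between plates.

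Foxn1 itself was at 0, 0.981, 0.171 and 1.53 CPM on E10.5 plates a to d, and at 211, 277, 196 and 164 CPM on the 4 E12.5 plates, in letter order as for all values by plate. The E10.5 level rested on 37 reads in all. The mean rose from 0.671 ± 0.716 CPM (SD, n = 4) to 212 ± 47.5 CPM (SD, n = 4), a ratio of summed reads of 295 (interval 214 to 420) and a log2 fold change of 8.08 ± 0.84 (SE, edgeR adjusted p = 0.000173).

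Among the genes of antigen processing, Prss16, the thymus-specific serine protease of cTEC, went from 0, 2.94, 4.71 and 1.04 CPM to 1009, 992, 1128 and 1258 CPM. The ratio of its summed reads was 523 (interval 433 to 636), and its log2 fold change was 8.91 ± 0.90 (edgeR adjusted p = 0.00014). Cd83, a membrane protein that stabilises MHC class II on the cell surface, went from 0, 0.302, 1.11 and 0 CPM to 152, 83.8, 59.4 and 128 CPM, with a ratio of summed reads of 321 (interval 200.4 to 552) and a log2 fold change of 8.18 ± 0.997 (edgeR adjusted p = 0.000559). Ly75 encodes DEC-205, an endocytic receptor used as a surface marker of cTEC. It was present on all 4 E10.5 plates, at 4.37, 7.84, 1.37 and 1.32 CPM, and stood at 41.5, 31.99, 37.0 and 37.3 CPM at E12.5. Its log2 fold change of 3.27 ± 0.63 (edgeR adjusted p = 0.00992) was the smallest of the 10, and its ratio of summed reads was 9.92 (interval 8.57 to 11.5). Cd83 and Ly75 are also known from dendritic cells. The list of blood and dendritic cell markers summed to 0 to 2.62 CPM on the plates of other E12.5 cells, with 6 of its 10 genes at 0 there (Fcer1g, Lyz2, Cd52, Itgax, Cd3e and Hbb-bt), and to 0 to 624 CPM in parathyroid cells.

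Crip3, a LIM domain protein of the thymus, was at 0, 1.13, 0 and 0.487 CPM at E10.5 and at 344, 388, 308 and 520 CPM at E12.5, with a ratio of summed reads of 911 (interval 602 to 1455) and a log2 fold change of 9.76 ± 0.87 (edgeR adjusted p = 5.6e-05). Tbata, named for its presence in thymus, brain and testis, had 2 reads among all E10.5 cells, and stood at 46.4, 52.3, 53.1 and 82.5 CPM at E12.5. The ratio of its summed reads was 1512 (interval 418 to 12488), and the edgeR adjusted p was 2.21e-05.

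Pltp, which moves phospholipids between lipoproteins and membranes, was present on all 4 E10.5 plates, at 8.03, 48.6, 27.9 and 18.9 CPM, and reached 834, 769, 796 and 781 CPM at E12.5. Its log2 fold change was 4.84 ± 0.51 (edgeR adjusted p = 0.000199). Pgam2, the muscle form of the glycolytic enzyme phosphoglycerate mutase, was at 0.239, 3.62, 9.77 and 8.49 CPM at E10.5 and at 126, 200.8, 165 and 175 CPM at E12.5, with a log2 fold change of 4.78 ± 0.81 (edgeR adjusted p = 0.00473). Skeletal muscle markers summed to 7.21 to 36.1 CPM on the plates of other E12.5 cells, against 35.8 to 74.5 CPM at E10.5, and 3 of the 8 (Myod1, Myog and Ckm) were at 0 in other E12.5 cells, Myod1 and Myog also at E10.5. Of the 4 muscle markers tested between the stages none was called, while Actc1, an actin of muscle, was at 0 in parathyroid cells and was called higher in other E12.5 cells (17.9 ± 11.9 CPM, edgeR adjusted p = 0.0334), and their part in the Pgam2 values was not tested.

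Ppp1r27, a regulatory subunit of protein phosphatase 1, had 14 E10.5 reads (0, 0.754, 0 and 0.278 CPM) and stood at 419, 534, 229 and 241 CPM at E12.5. The ratio of its summed reads was 1297 (interval 773 to 2373), and the edgeR adjusted p was 3.1e-05. Adra1b, the alpha-1B adrenergic receptor, was at 0 on 3 E10.5 plates and at 0.627 CPM on the other, and at 19.5, 64.6, 86.4 and 49.3 CPM on the E12.5 plates, with a ratio of summed reads of 319 (interval 168 to 698) and a log2 fold change of 8.17 ± 1.21 (edgeR adjusted p = 0.00205). The E12.5 plates of these 2 genes spread more widely than those of Prss16 or Pltp.

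**Figure D1:**
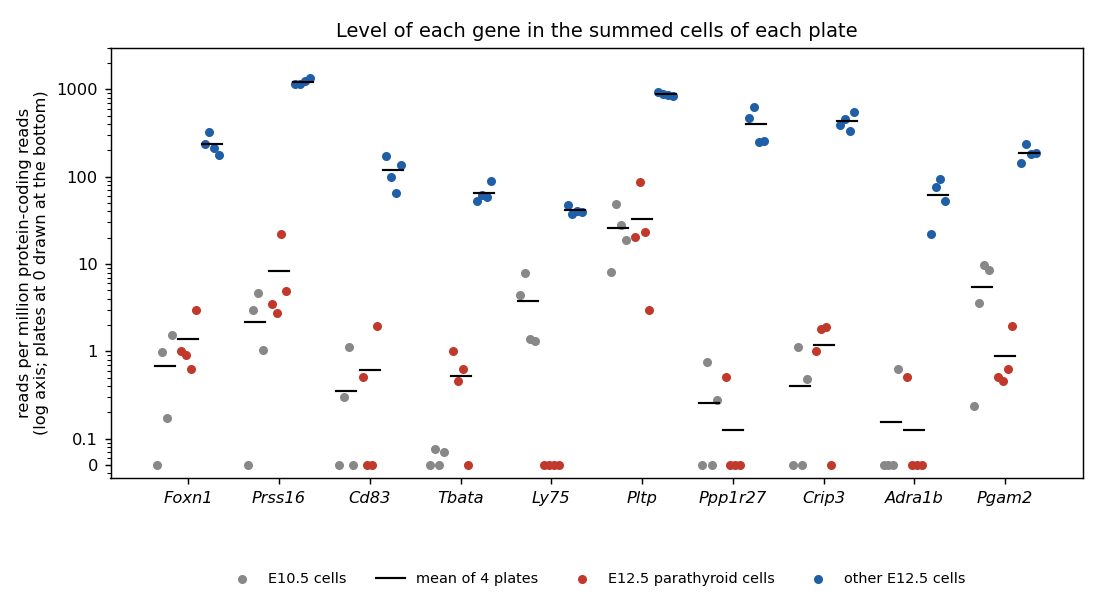
Level of each of the 10 genes, in CPM on a log axis, with 1 point for the summed cells of each plate: grey for E10.5, red for E12.5 parathyroid cells and blue for other E12.5 cells, with black lines for means of 4 plates (means under 0.1 are not drawn, and plates at 0 sit at the bottom). Blue points lie above all grey and red points of the same gene. On the log axis the narrowest gap is that of Ly75 to E10.5, from 7.84 to 37.7 CPM.

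The reads were not spread evenly over cells. Among the 313 other E12.5 cells, the 10 cells with most reads held 12.2% of the Pltp reads, 18.4% of the Prss16 reads and 20.9% of the Foxn1 reads. The corresponding share was 57.3% for Tbata, 60.7% for Ppp1r27 and 86.1% for Adra1b. Ppp1r27 and Adra1b also had 125.3 and 93.2 reads per counted molecule, against 14.2 to 32.9 for the other 8 genes. In molecules of the first run of each plate, Adra1b came to 16 molecules in 14 cells and Ppp1r27 to 89 molecules in 41 cells, whereas Prss16 came to 1948 molecules in 254 cells.

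To compare how many cells held each gene, every cell was thinned at random to 40000 protein-coding reads, which all cells had. A Foxn1 read was present in 68.7% of other E12.5 cells (215 of 313, exact binomial interval 63.2 to 73.8) and in 1.404% of E10.5 cells (5 of 356, interval 0.458 to 3.25). By plate, the E12.5 share ran from 63.3% to 75.9% and the E10.5 share from 0% to 3.26%. The binomial intervals treat cells as independent, whereas the cells of a plate share a library. Prss16 was present in 86.6% and Pltp in 88.5% of other E12.5 cells, Crip3 in 55.6%, Pgam2 in 33.5%, Cd83 in 28.4%, Ly75 in 21.4%, Ppp1r27 in 17.6%, Tbata in 15.02% and Adra1b in 10.2%. At E10.5, Pltp was present in 15.7% of cells and each of the other 9 genes in at most 3.37%. Without thinning, the E12.5 shares of Foxn1, Prss16 and Pltp were 78.3%, 92.01% and 92.7%.

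Shares by molecule were as low or lower at E10.5 for each gene. No molecule of Tbata, Ppp1r27 or Crip3 was counted in any of the 356 E10.5 cells, which allows a share of up to 0.843% (3 counts of the total) of cells with a counted molecule, and sets no limit on cells that express the gene. Reads of Crip3 were present in 6 of these cells at 40000 reads and in 20 without thinning, those of Ppp1r27 in 5 and 10, and those of Tbata in 2 by either count. Foxn1 had 1 molecule in each of 5 E10.5 cells, 1 on plate b, 1 on plate c and 3 on plate d. Of these 5 cells, 1 also held a molecule of another gene of the set, which was Pltp, and none was among the Tubb3 cells. Pltp molecules were present in 10.7% of E10.5 cells (38 of 356), Ly75 in 1.97% (7 of 356), and Prss16 and Pgam2 in 1.404% each (5 of 356).

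**Figure D2:**
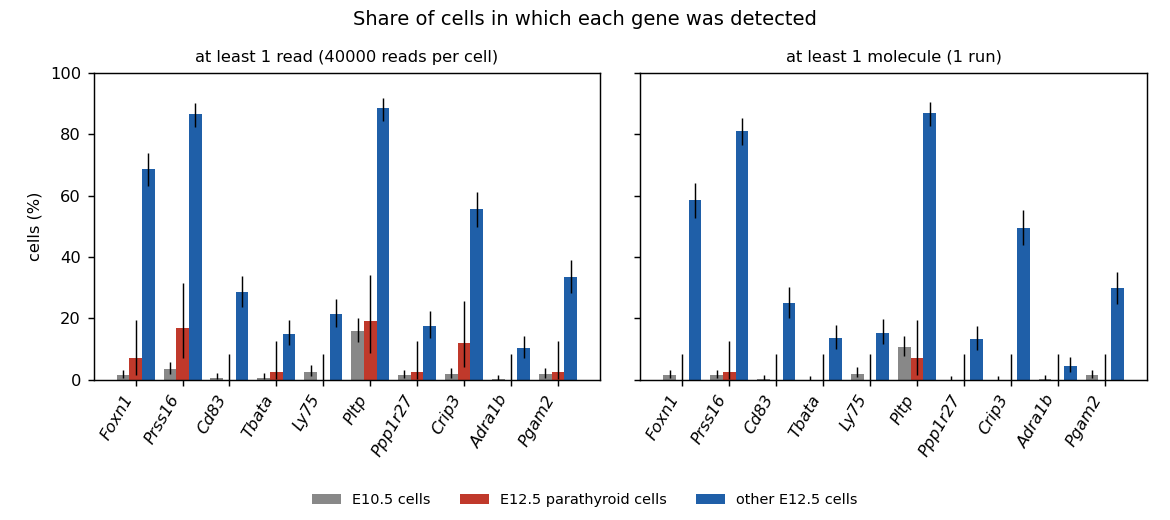
Percent of cells with at least 1 read at 40000 reads per cell (left) and with at least 1 molecule in 1 run (right), for each gene, in 356 E10.5 cells (grey), 42 parathyroid cells (red) and 313 other E12.5 cells (blue). Bars start at 0 and error bars are exact 95% binomial intervals that treat cells as independent. Blue bars run from 10.2% (Adra1b) to 88.5% (Pltp) on the left and from 4.47% to 86.9% on the right, while no red bar on the right exceeds 7.14%.

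The parathyroid cells were sorted onto the same plates as the other E12.5 cells and give the background of each gene there. Their Chga level left a wide gap, as the lowest parathyroid cell had 4952 CPM and the highest other E12.5 cell 687 CPM. All 10 genes were lower in parathyroid cells on 4 of 4 plates, and none of their plate levels overlapped with those of the other E12.5 cells. The edgeR test called all 10 higher in other E12.5 cells, where 6.58% of the 9838 genes tested were called higher and 13.0% had every plate of other cells above every plate of parathyroid cells. The 10 genes had 0 to 271 parathyroid reads, under 10 for all but Prss16 and Pltp, and those with so few passed the low-count filter through the other E12.5 cells, where they were high, so that the count of 10 is a description.

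Foxn1 was at 1.01, 0.907, 0.629 and 2.96 CPM in the parathyroid cells of plates a, c, d and e, 8 reads in all, against 240, 326, 216 and 175 CPM in the other cells. The ratio was 200 (interval 102 to 464), and the log2 difference was 7.68 ± 0.71 (edgeR adjusted p = 0.000182). No Foxn1 molecule was counted in the 42 parathyroid cells, which by the same rule allows a share of up to 7.14% of cells with a counted molecule, while a Foxn1 read was present in 7 of them without thinning and in 3 at 40000 reads. Prss16 was at 3.52, 2.72, 22.02 and 4.93 CPM in parathyroid cells and at 1148 to 1346 CPM in the other cells, a ratio of 157 (interval 120 to 210, edgeR adjusted p = 0.000437). A Prss16 read was present in 45.2% of parathyroid cells without thinning and in 16.7% at 40000 reads, but a molecule was counted in only 1 of 42.

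Pltp was present in the parathyroid cells of all 4 plates, at 20.6, 86.1, 23.3 and 2.96 CPM against 835 to 946 CPM, a ratio of 22.2 (interval 19.7 to 25.1) and a log2 difference of 4.95 ± 0.77 (edgeR adjusted p = 0.00646). Its molecules were present in 3 of 42 parathyroid cells. Crip3 had 9 parathyroid reads, Pgam2 5, Tbata 4 and Cd83 3, and the ratios were 327 (interval 172 to 714), 252 (interval 108 to 775), 111 (interval 43.2 to 407) and 267 (interval 91.2 to 1294). Their edgeR adjusted p-values were 6.46e-05, 0.000291, 0.00659 and 0.00691.

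Ppp1r27 and Adra1b had 1 parathyroid read each, for ratios of 2663 (interval 478 to 105188, edgeR adjusted p = 4.27e-05) and 421 (interval 75.4 to 16615, edgeR adjusted p = 0.00767). Ly75 had none on any of the 4 plates (edgeR adjusted p = 0.0168). With 3 reads over the group as the floor, the ratio of summed Ly75 reads was at least 94.1. Ly75 had 17.6 reads per counted molecule in other E12.5 cells. The floor of 3 reads is thus under 1 molecule, and the ratio sets no lower limit on the difference in RNA. No molecule of Cd83, Tbata, Ly75, Ppp1r27, Crip3, Adra1b or Pgam2 was counted in a parathyroid cell. Parathyroid cells held a median of 2102.5 molecules in the first run, against 3184 in other E12.5 cells. An Adra1b molecule was counted in only 14 of the 313 other E12.5 cells, so its absence from 42 parathyroid cells does not set the classes apart.

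Since both classes came from the same plates, the plate was also used as a block. That fit called 289 genes in place of 823 and kept 9 of the 10 genes, with Ly75 at an edgeR adjusted p = 0.0915. Leaving out 1 plate at a time left 103 to 138 genes called and 6 or 7 of the 10. Foxn1, Prss16, Ppp1r27, Crip3 and Pgam2 were called in each of these fits, with adjusted p-values up to 0.0162. With the Chga threshold at 500 CPM, which moves 4 cells into the parathyroid class, Crip3 had a log2 difference of 4.14 ± 1.43 (edgeR adjusted p = 0.151) and Ly75 of 3.69 ± 1.54 (edgeR adjusted p = 0.276), and the differences of Foxn1, Prss16, Pltp and Ppp1r27 fell to 5.50, 4.27, 3.57 and 9.01 while remaining called. Without plate a, the edgeR adjusted p was 0.0815 for Cd83, 0.0815 for Ly75, 0.0782 for Pltp and 0.0541 for Adra1b. It was 0.0537 for Tbata, 0.0836 for Ly75 and 0.0659 for Adra1b without plate c, 0.0596 for Tbata, 0.0836 for Ly75, 0.0810 for Pltp and 0.0810 for Adra1b without plate d, and 0.0575 for Tbata, 0.0892 for Ly75 and 0.0692 for Adra1b without plate e.

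Set against E10.5, the parathyroid cells showed no call for these genes. Only Prss16, Pltp and Pgam2 passed the low-count filter. Prss16 differed by a log2 value of 1.75 ± 1.42 (edgeR adjusted p = 0.648), Pltp by 0.16 ± 1.09 (edgeR adjusted p = 0.97) and Pgam2 by -2.91 ± 1.29 (edgeR adjusted p = 0.282). Of all 9854 genes tested, 8.43% were called in either direction. The errors of these 3 differences leave room for changes of several-fold, so the test does not show that the levels were equal. Ly75, with 194 reads at E10.5 and 0 in parathyroid cells, was not tested in this fit.

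Few E10.5 or parathyroid cells held more than 1 of the genes at 40000 reads, whereas most other E12.5 cells held several. E10.5 cells held a median of 0 of the 10 genes and at most 2, and 96.9% of them held 0 or 1. Parathyroid cells likewise held at most 2, and 85.7% held 0 or 1. Other E12.5 cells held a median of 4 (quartiles 3 and 5), 42.5% held 5 or more, and 18 of the 313 cells held 8 or more. No cell held all 10. By plate, 32 of 79, 24 of 75, 30 of 76 and 47 of 83 cells held 5 or more. In 12 of the other E12.5 cells none of the 10 was detected.

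**Figure D3:**
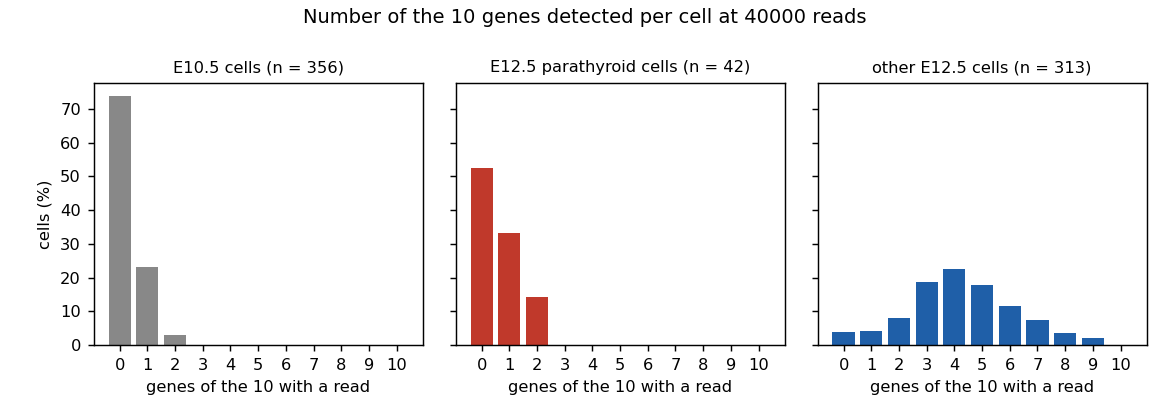
Percent of cells (y axis) by the number of the 10 genes with a read at 40000 protein-coding reads per cell (x axis), in 356 E10.5 cells, 42 parathyroid cells and 313 other E12.5 cells. The first 2 groups end at 2 genes, whereas the other E12.5 cells peak at 4 genes, with 22.7% of cells, and reach 9.

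Within the E12.5 plates, the level of each gene was correlated with that of Foxn1 over cells, as the mean over 4 plates of Spearman's rho on CPM. The cells of a plate share a library, the measure is sparse, and the values are given as a description. Over all 355 cells, the mean rho was 0.378 for Prss16 (by plate 0.357, 0.368, 0.534 and 0.253), 0.358 for Pltp (0.375, 0.336, 0.290 and 0.429) and 0.234 for Crip3 (0.274, 0.213, 0.138 and 0.311). These 3 genes were positive on all 4 plates, and over all 87 cells of plate b, outside the count table, Crip3 had 0.0408. Cd83 had a mean of 0.176, Ly75 of 0.165, Pgam2 of 0.149, Adra1b of 0.146, Ppp1r27 of 0.141 and Tbata of 0.122, and of these only Tbata had a plate with a value below 0 (-0.00152 on plate a). Over the 4344 protein-coding genes with a read in at least 20% of E12.5 cells, the median rho with Foxn1 was 0.0232, with a 5th percentile of -0.0911 and a 95th of 0.153. Prss16 ranked at 3, Pltp at 5, Crip3 at 44, Cd83 at 142, Ly75 at 174 and Pgam2 at 242 of these genes, while Tbata, Ppp1r27 and Adra1b were detected in too few cells to be ranked.

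All 9 values were lower once the parathyroid cells, which were low in all 10 genes, were left out. Over the 313 other E12.5 cells alone, the mean rho was 0.227 for Prss16 (0.125 to 0.437 by plate), 0.187 for Pltp (0.0779 to 0.332), 0.124 for Crip3 (0.0194 to 0.225), 0.117 for Cd83, 0.116 for Adra1b, 0.0975 for Tbata, 0.0881 for Ppp1r27, 0.0866 for Ly75 and 0.0767 for Pgam2. In these cells, the 95th percentile over the 4395 genes with a read in at least 20% of cells was 0.120. Prss16, Pltp and Crip3 were above this mark. The rho of the 10 genes with the number of reads in the cell ran from 0.0137 (Pltp) to 0.155 (Cd83), and was 0.0633 for Foxn1 itself. For Cd83, Ly75, Ppp1r27, Crip3, Pgam2 and Adra1b the value with depth was at or above that with Foxn1 in these cells, and the part of depth in the latter was not tested.

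**Figure D4:**
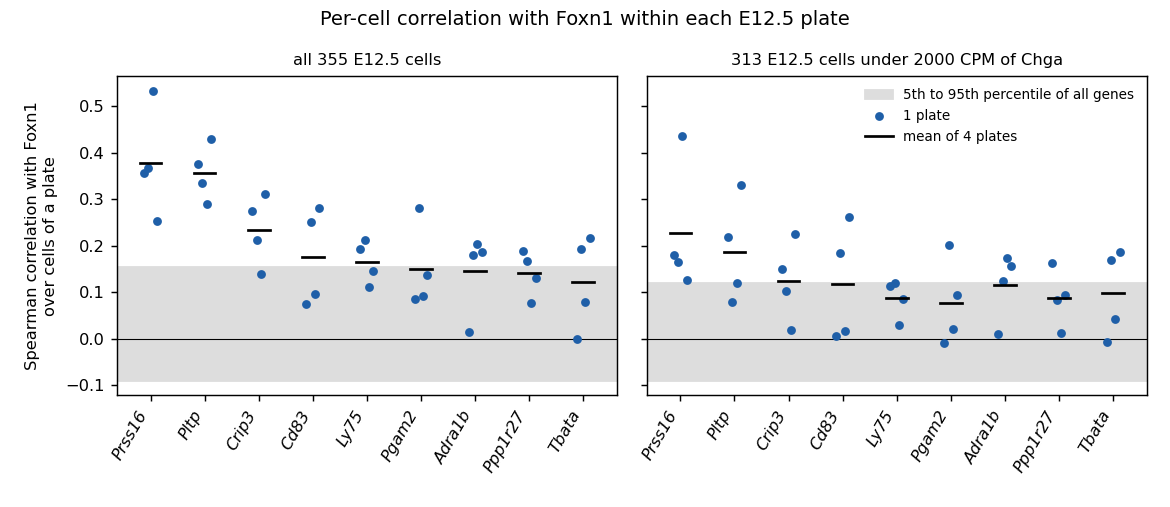
Spearman correlation with Foxn1 over the cells of a plate (y axis, no unit) for the other 9 genes, with 1 blue point per E12.5 plate and a black line for the mean of 4 plates, over all 355 cells (left) and over the 313 cells under 2000 CPM of Chga (right). The grey band runs from the 5th to the 95th percentile of genes with a read in at least 20% of cells, and Prss16 and Pltp stand above it in both panels, with means of 0.378 and 0.358 on the left and 0.227 and 0.187 on the right.

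Among each other, the 10 genes formed 45 pairs, whose values over the other E12.5 cells are given without a background, as pairs of other genes were not computed and all 10 genes had a positive rho with the reads per cell. The highest pair was Ly75 with Ppp1r27 (0.341), followed by Prss16 with Crip3 (0.319) and Tbata with Ppp1r27 (0.297). The lowest was Adra1b with Pgam2 (-0.0300). The pair of Prss16 and Crip3 thus had a higher value than either gene had with Foxn1. The summed cell cycle genes had a negative mean rho with all 10 genes over the other E12.5 cells, from -0.271 for Prss16, -0.238 for Ppp1r27 and -0.205 for Tbata to -0.0608 for Foxn1. It was negative on all 4 plates for Prss16, Cd83, Tbata, Ly75 and Ppp1r27, whereas the highest plate was above 0 for Foxn1 (0.0850), Adra1b (0.0324), Pltp (0.0230), Pgam2 (0.0143) and Crip3 (0.00464), and the value over all genes was not computed. The summed medullary progenitor markers had a mean rho of -0.0659 with Foxn1, with a plate on either side of 0, of 0.154 with Tbata (-0.00483 to 0.275 by plate) and of 0.143 with Adra1b (0.0405 to 0.218 by plate).

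The 10 genes outside the set whose per-cell pattern was most like that of Foxn1, by the same mean rho over the 4 plates and 355 cells, were Fn1 (0.405), Ptn (0.386), Ccl25 (0.374), Krt8 (0.354), Plgrkt (0.348), Psmb11 (0.330), Il7 (0.327), Mfsd12 (0.324), Cnn3 (0.322) and Gas6 (0.317). Fn1 encodes the matrix protein fibronectin and Ptn the growth factor pleiotrophin. Ccl25 is the chemokine that draws thymocyte progenitors, Psmb11 the thymoproteasome subunit of cTEC, Il7 the cytokine of early thymocytes and Krt8 a keratin of simple epithelia. The range over plates was 0.241 to 0.596 for Fn1 and 0.297 to 0.448 for Ccl25, and the neighbours in this order did not differ by more than that spread. All 10 were lower in parathyroid cells than in other E12.5 cells on average (14.9 against 357 CPM for Fn1, 44.3 against 3679 CPM for Ccl25), and over the other E12.5 cells alone their mean rho fell to between 0.143 for Cnn3 and 0.266 for Fn1.

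Other E12.5 cells were next divided by whether a Foxn1 read was left after thinning, giving 215 cells with and 98 cells without. The cells with Foxn1 had a median of 181451 reads and those without 162364, and 30 of the 98 cells without had a Foxn1 read at full depth. The medians were 3318 and 2630.5 molecules in the first run, and 2608 and 2355.5 genes at full depth. Thinning evens out reads but not molecules, and the part of molecule number in the differences below was not tested. The edgeR test over plates called none of the 9849 genes tested (0.00% of them), and 318 genes had an unadjusted p under 0.05, while DESeq2 called 92. None of the other 9 genes was called. Their adjusted p-values were all near 1. On simulated data for this comparison, edgeR recovered 26.2% of genes changed 4-fold, so that differences of this size or smaller can be missed. False calls on these simulated data numbered 2 by edgeR and 94 by DESeq2.

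The levels were higher with Foxn1 on 4 of 4 plates for Prss16, Pltp, Tbata and Crip3. Prss16 was at 878, 697, 632 and 1158 CPM without and at 1276, 1378, 1498 and 1402 CPM with Foxn1 (log2 difference 0.66 ± 0.27, unadjusted edgeR p = 0.0296). Pltp was at 665, 630, 726 and 576 CPM without and at 1079, 1006, 936 and 913 CPM with (0.55 ± 0.19, unadjusted edgeR p = 0.0151). Tbata was at 49.1, 14.6, 37.4 and 18.0 CPM without and at 54.3, 82.4, 67.3 and 109 CPM with (1.401 ± 0.53, unadjusted edgeR p = 0.0227). For these 3 genes every plate of cells with Foxn1 was above every plate of cells without, as was the case for 2.78% of all genes tested. Crip3 overlapped between the groups, with a log2 difference of 0.60 ± 0.27. Cd83 (0.85 ± 0.69), Ly75 (0.74 ± 0.62) and Ppp1r27 (1.36 ± 0.78) were higher on 3 of 4 plates, and Adra1b and Pgam2 differed by -0.26 ± 1.23 and 0.15 ± 0.33. A single plate decided the sign of the Adra1b difference, which was 2.36 without plate d, where the cells without Foxn1 stood at 227 CPM.

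Most cells without a detected Foxn1 read held reads of Prss16 and Pltp. Of those 98 cells, 76.5% held a Prss16 read (interval 66.9 to 84.5) and 75.5% a Pltp read (interval 65.8 to 83.6), against 91.2% and 94.4% of the cells with Foxn1 and 16.7% and 19.0% of parathyroid cells. These intervals treat cells as independent. By plate, the Prss16 share ran from 65.2% to 86.2% without and from 85.7% to 96.0% with Foxn1, which overlapped. The Pltp share ran from 65.4% to 86.2% and from 89.8% to 98.4%. Cd83 was present in 14.3% of cells without (7.69% to 24.1% by plate) and 34.9% of cells with Foxn1 (28.3% to 47.6%). Crip3 was present in 43.9% (34.6% to 52.2%) and 60.9% (47.2% to 76.2%), with plates that overlapped. A median of 3 of the 10 genes was detected in cells without Foxn1 and of 5 in cells with it, the latter count including Foxn1 itself. The medullary progenitor list summed to 604 to 2435 CPM on the plates of cells without and to 531 to 966 CPM on those of cells with Foxn1, and the mesenchyme list to 15.4 to 55.5 CPM against 0.358 to 12.0 CPM. Their part in the differences was not tested.

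**Figure D5:**
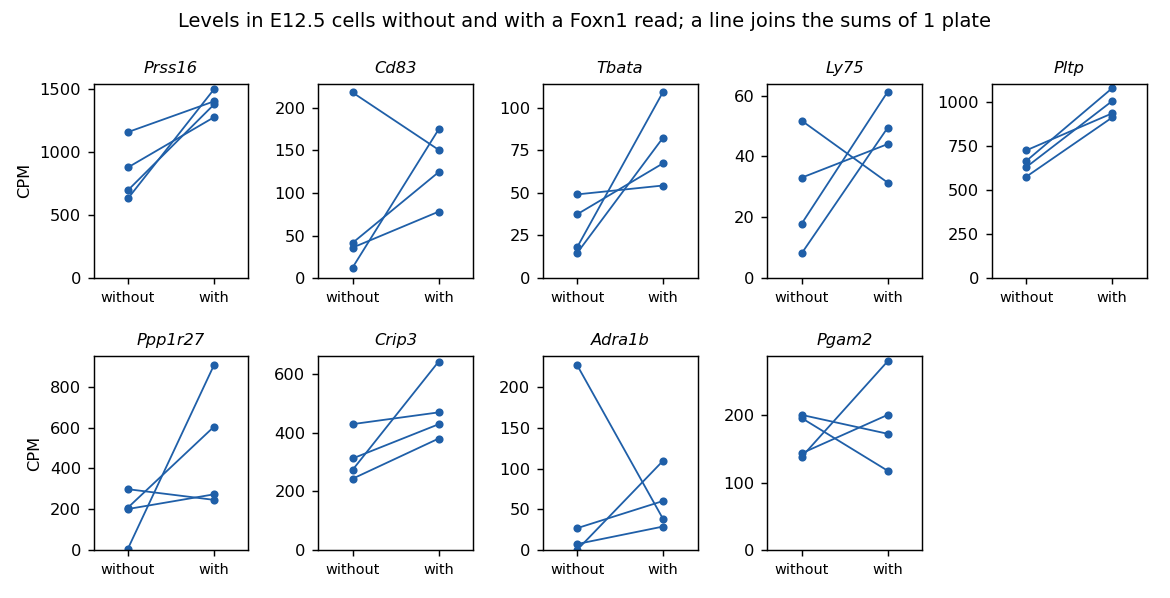
CPM (y axis, from 0) of the other 9 genes in the summed other E12.5 cells without and with a Foxn1 read at 40000 reads, with 1 line joining the sums of each of the 4 plates. All 4 lines rise for Prss16, Pltp, Tbata and Crip3, and the Adra1b line of plate d falls from 227 to 38.2 CPM.

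A list of 18 other FOXN1 targets and cortical genes gives the wider programme. Of these, 15 were tested between the stages and 13 were higher at E12.5 and none was lower, against 3.80% and 2.44% of all genes tested. The E12.5 sums of this test include the parathyroid cells. Ctsh, 1 of the 13 (log2 fold change 2.92 ± 0.56), was higher in parathyroid cells than at E10.5 (5.11 ± 0.75, edgeR adjusted p = 0.00491). The median log2 fold change over the 15 was 3.22, against 0.00135 over all genes tested, and Dll4 (0 reads at E10.5), Cd274 (1), Kitl (13), Psmb11 (39) and Il7 (42) passed the low-count filter through their E12.5 plates, so that the count and the median are a description. Psmb11 rose from 0.724 ± 0.874 to 830 ± 147 CPM and Ccl25 from 13.0 ± 9.39 to 3295 ± 355 CPM (SD, n = 4, edgeR adjusted p = 3.22e-05 and 2.21e-05). Il7, Ctsl, which encodes the cathepsin of cTEC lysosomes, and the immunoproteasome subunit Psmb10 also rose, by log2 fold changes of 7.24 ± 0.59, 3.22 ± 0.24 and 3.04 ± 0.38. Tap1 (3.13 ± 1.19, edgeR adjusted p = 0.185) and the tendon regulator Scx (0.02 ± 0.45, edgeR adjusted p = 0.988) were not called, and Enpep, Hdc and Foxn4 were too low to test. Against parathyroid cells, 11 of the 15 tested were higher in other E12.5 cells and 1, the cathepsin gene Ctsh, was lower (16.8 ± 7.84 against 144 ± 61.6 CPM, edgeR adjusted p = 0.0317), where 6.58% of all genes tested were called higher and 1.79% lower. Dll4, Kitl, Cd274 and Fgfr2, all among the 11, were at 0 in parathyroid cells. Il7 and Psmb11, also among the 11, had means of 0.737 and 1.41 CPM there. All of these genes passed the low-count filter through the other E12.5 cells, where they were high, so that the count is a description.

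The pouch and thymic regulators that precede or accompany Foxn1 moved less. Of 12, all tested, 5 were higher at E12.5 and none was lower, with a median log2 fold change of 1.17. Over all genes tested, 3.80% were called higher and 2.44% lower, with a median of 0.00135. The 5 included the paired box factors Pax1 (3.25 ± 0.44) and Pax9 (1.68 ± 0.41) and the epithelial regulator Trp63 (2.92 ± 0.46). Eya1, a transcriptional coactivator (-1.43 ± 0.41, edgeR adjusted p = 0.0705), and Hoxa3 (-1.20 ± 0.66, edgeR adjusted p = 0.396) were not called. Between the classes of E12.5 cell, 4 of the 12 were higher in other E12.5 cells and none was lower, against 6.58% and 1.79% of all genes tested, with Pax1 (2.02 ± 0.26), Trp63 (8.36 ± 1.47) and the LIM homeodomain factor Isl1 (5.44 ± 1.17) among them.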

How the data were processed

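Single cells were sorted into 96-well plates, the wells of a plate were pooled after reverse transcription, and the libraries were amplified and sequenced. The authors made the deposited read counts per gene and cell with the BD Precise whole transcriptome pipeline, which uses FastQC, STAR and HTSeq (versions not given in the sources used here), with GRCm38.p5 named in the processing notes. The deposited count table holds the sum of 2 runs for each of 8 plates. The authors also deposited molecule counts per run, corrected for errors in the molecular indices. The 10 genes and all gene lists were chosen with earlier results of these data known.

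Protein-coding genes were kept. Cells with 40000 to 400000 reads, 500 to 5000 features and at most 50% mitochondrial reads were kept, and CPM was computed over protein-coding genes. No doublet caller was run. Each protein-coding count was summed per plate and class of cell (at least 3 cells a sum) and tested with edgeR 4.0.16 (quasi-likelihood, TMM scaling, low-count filter, R 4.3.3), with a Benjamini-Hochberg adjusted threshold of 0.05. This edgeR test gives no standard error. The SE printed with its log2 values is the absolute log2 value divided by the square root of the F statistic. DESeq2 1.42.0 was an alternative. Intervals are exact at 95%, and cells were thinned with seed 1. Python 3.11.15, scipy 1.17.1 and matplotlib 3.10.9 were used.

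The genes named are the 10 genes, the members of fixed lists, and the 10 other genes with the highest mean per-cell correlation with Foxn1 (a read in at least 20% of cells). Parathyroid and other cells of a plate share a library, which is where the pairing of the plate block comes from. The correlation of their deviations from the group means was 0.0300 to 0.0661. On simulated data, edgeR recovered 92.8% of genes changed 32-fold between the stages, 44.8% between the E12.5 classes and 80.0% between cells with and without Foxn1. For genes changed 4-fold the shares were 54.7%, 13.1% and 26.2%. False calls on the simulated data of each comparison numbered 1 to 5 by edgeR and 87 to 124 by DESeq2. Wells absent from the count table and E12.5 plate b, which has 1 run, entered no main test. Values of some genes of the lists are not reported here.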

Additional observations from a re-analysis of the deposited data

Results flagged for a closer look

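Of 34 groups of 4 plates examined for the 10 genes, 5 held a plate far from the others (gap over range above 0.829), where chance gives about 1 in 20. Adra1b stood at 0.627 CPM on E10.5 plate d, from 9 reads, with 0 on the other 3. In parathyroid cells, Prss16 stood at 22.02 CPM on plate d (35 reads, others 2.72 to 4.93 CPM), Foxn1 at 2.96 CPM on plate e (3 reads, others 0.629 to 1.01 CPM) and Pgam2 at 1.97 CPM on plate e (2 reads, others 0.453 to 0.629 CPM). The per-cell correlation of Adra1b with Foxn1 was 0.0137 on plate a and 0.181 to 0.204 on the others.

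E12.5 plate b, sequenced in 1 run and outside the count table, was examined by itself. Its 75 cells under the Chga threshold had 246 CPM of Foxn1, 948 of Prss16, 39.2 of Cd83, 53.1 of Tbata, 32.7 of Ly75, 886 of Pltp, 222 of Ppp1r27, 268 of Crip3, 117 of Adra1b and 114 of Pgam2. In these cells the per-cell rho with Foxn1 was 0.263 for Prss16, 0.189 for Adra1b, 0.136 for Ly75, 0.0834 for Pltp, 0.0489 for Cd83 and 0.0373 for Tbata, and was below 0 for Crip3 (-0.0609), Pgam2 (-0.0250) and Ppp1r27 (-0.0223). In its 12 parathyroid cells Foxn1 was at 0, Pltp at 15.5 CPM and Prss16 at 79.0 CPM, above the 2.72 to 22.02 CPM of the other plates. A well of E12.5 plate d with 319114 reads, absent from the table, held 39 Foxn1, 308 Prss16, 237 Pltp and 267 Crip3 reads.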

How the results depend on the processing

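Between the stages, 718 genes were called, against 1638 by DESeq2 and 215 with a replicate block on the plate letter, which is only a shared letter here (correlation of deviations -0.0214 to 0.0588), and where Pgam2 had an adjusted p of 0.0588. Between the E12.5 classes, 823 genes became 1602 by DESeq2, 329 without the low-count filter, 536 on molecules, 289 with the replicate block on the shared plate, and 103 to 138 leaving out 1 plate, with 6 to 7 of the 10 genes called. With the Chga threshold at 500 CPM, Ly75 and Crip3 had log2 differences of 3.69 and 4.14 with adjusted p-values of 0.276 and 0.151. Between parathyroid cells and E10.5, 831 genes became 1693 by DESeq2, 419 without the filter, 448 on molecules, 81 with the replicate block and 90 to 718 leaving out 1 plate. DESeq2 and the use of all wells each called 1 of the 10 genes there, Ly75, as lower (adjusted p = 0.0208 and 0.0409). It had no value in the fit reported, and was not called without the filter (0.125) or leaving out an E12.5 plate (0.0784 to 0.0989). The Pltp difference, 0.16, changed sign without E10.5 plate a (-0.14), E10.5 plate d (-0.01) or E12.5 plate c (-0.93), and ranged from -0.93 to 0.57 leaving out 1 plate. Between cells with and without Foxn1, DESeq2 called 92 genes, where it made 94 false calls on simulated data. The Adra1b difference changed sign with the replicate block (1.57) and without plate d (2.36), ranging from -1.11 to 2.36 leaving out 1 plate, and that of Pgam2 without plate c (-0.16), ranging from -0.16 to 0.38. Of the alternatives for single genes, 400 kept direction and side of the threshold, 18 lost the call and 6 changed sign. The cause was not tested. Few parathyroid cells (42) and reads limit the background values.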
